A study of Mus musculus with 6 samples.

Results

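The genes described here are the enzymes, transporters and regulators that carry glucose through glycolysis to pyruvate and decide between lactate and mitochondrial oxidation of pyruvate. They were chosen by name as 33 gene symbols, and 34 of the 55487 rows of the deposited table carried one of them. Aldoa had a second row, which stayed between 0.119 and 0.461 CPM (normalized counts scaled to a common library size) and was not tested. All 33 genes were represented among the 16565 rows that were tested, those whose counts exceeded 10 throughout the Control or the iSM KO libraries.

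Bulk RNA was sequenced from the aortas of 6 male mice, 3 iSM KO and 3 Control, on a C57BL/6 background and without injury (baseline). Both groups carried Myh11-CreERT2, a Y-linked transgene whose Cre recombinase is driven by a smooth muscle promoter. Both received tamoxifen from 8 weeks of age, at 1 mg per mouse per day for 10 days, and aortas were taken after a washout of 2 weeks plus 60 days more. The iSM KO mice were homozygous for a Prdm16 allele with a floxed exon 9, and the Control mice, labelled WT, had 2 wild-type alleles. The adventitial layer had been removed, so each library mixes medial smooth muscle, in which Cre is active, with the other cells that stayed on the vessel. In such bulk samples fewer cells of a type and less RNA per cell cannot be told apart. Totals ranged from 24911609 to 40460467 counts per library, the lowest in Control replicate 3, and protein-coding genes took 59.0% to 67.6% of them. Prdm16 itself, the targeted gene, was at 183, 223 and 179 CPM in the Control libraries and at 93.8, 113 and 79.8 CPM in the iSM KO libraries, without overlap (log2 fold change -1.03, SE 0.14, FDR 0.00265 by edgeR's quasi-likelihood test).

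Glycolysis splits glucose into pyruvate in the cytosol. Its preparatory steps use ATP to phosphorylate and cleave the sugar, and its payoff steps return ATP and NADH. Pyruvate is then either reduced to lactate by lactate dehydrogenase, which recycles NAD, or passed to the pyruvate dehydrogenase complex of mitochondria, which the pyruvate dehydrogenase kinases switch off. Arterial smooth muscle is known for making much lactate even when oxygen is plentiful, and many genes of the pathway are known targets of hypoxia-inducible factor.

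That factor recognises sites that include the core letters ACGTG. The promoter windows were searched on both strands for these letters alone, and other forms of the core were not searched. RefSeq start sites of GRCm38.p6 gave 51 windows for 32 of the 33 genes, each with 250 bases before and 50 after the start, and Eno1b had none. The letters occurred in 22 of the 51 windows (43.1%), of 18 genes, and in 19.6% of all 32851 windows of the same length. Windows of nearby starts overlap, so that the same site can be counted more than once, as for Aldoa. The 250 bases before a start are given here for Pfkfb3, which fell in the iSM KO aortas and has 2 separate starts, for Ldha, whose window has the core in repeated copies, and for the upstream start of Hk1, which rose and has none in this window (the window of its other start had 2, both after the start). Each is written 5′ to 3′ on the strand of its gene, and capitals mark the core on either strand, where CACGTG holds 2 overlapping matches.
Pfkfb3 downstream start, chr2:11502091-11502340, minus strand: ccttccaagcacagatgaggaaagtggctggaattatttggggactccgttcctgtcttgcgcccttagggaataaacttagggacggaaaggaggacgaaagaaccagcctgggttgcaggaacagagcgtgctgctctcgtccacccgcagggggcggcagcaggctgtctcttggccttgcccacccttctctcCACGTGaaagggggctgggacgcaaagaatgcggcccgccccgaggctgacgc
Pfkfb3 upstream start, chr2:11553930-11554179, minus strand: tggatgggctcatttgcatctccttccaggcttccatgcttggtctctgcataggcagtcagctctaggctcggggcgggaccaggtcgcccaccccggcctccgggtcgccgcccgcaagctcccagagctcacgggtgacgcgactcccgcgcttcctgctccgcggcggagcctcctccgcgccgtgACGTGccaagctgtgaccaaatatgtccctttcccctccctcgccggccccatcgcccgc
Ldha, chr7:46845554-46845803, plus strand: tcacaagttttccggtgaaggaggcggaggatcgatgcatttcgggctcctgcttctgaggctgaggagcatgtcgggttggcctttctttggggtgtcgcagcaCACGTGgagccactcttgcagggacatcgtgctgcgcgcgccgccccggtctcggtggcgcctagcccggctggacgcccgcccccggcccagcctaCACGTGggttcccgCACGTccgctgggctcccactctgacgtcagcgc
Hk1 upstream start, chr10:62379909-62380158, minus strand: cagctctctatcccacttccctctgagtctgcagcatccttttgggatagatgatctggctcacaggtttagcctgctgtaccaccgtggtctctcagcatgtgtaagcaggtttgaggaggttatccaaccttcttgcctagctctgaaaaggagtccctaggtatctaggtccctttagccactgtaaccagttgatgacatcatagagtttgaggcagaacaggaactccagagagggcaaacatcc
The Ldha window had 5 matches and the Pfkfb3 windows had 2 and 1. A match describes letters and not binding, and its absence from a window says nothing about the factor. The window of the other Ldha start had 0 matches. Every window of Eno1, which also fell, had 0 matches too, so that the printed windows do not stand for all genes that changed.

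Most of the pathway was at similar levels in both groups. Of the 33 genes, 2 rose (Hk1 and Eno1b), 2 fell (Eno1 and Pfkfb3) and 29 did not pass an FDR of 0.05. These shares, 6.06% in each direction, stand beside 4.26% of all tested genes that were higher and 3.30% that were lower. With an added fold change over 2, Eno1b was higher and Eno1 lower, against 1.40% and 1.38% of all tested genes. The median log2 fold change of the 33 genes was 0.025, against -0.014 over all tested genes, and 19 of the 33 were positive. Values of the 2 groups did not overlap for 5 genes that were higher (Hk1, Eno1b, Slc2a1, Pkm and Pgam1) and for 5 that were lower (Eno1, Pfkfb3, Pdk1, Pfkm and Pdk3), or 15.2% each way. Across all tested genes the groups were apart in the same sense for 15.0% and 13.0%. Summed over the 33 genes, the level was 2209, 2378 and 2456 CPM in the Control libraries and 2475, 2437 and 2561 CPM in the iSM KO libraries, so that 1 iSM KO library fell inside the Control range.

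The 29 genes that did not pass had log2 fold changes from -0.53 to 0.33, and 22 of them lay within 0.25 of no change. For 25 of the 29, the 95% interval excluded a fold change of 2 in either direction. The intervals of Aldoc, Pgam2, Slc16a1 and Pfkfb1 did not, and 3 of these (Aldoc, Pgam2 and Pfkfb1) had fewer than 50 counts in at least 1 library.

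**Figure D1:**
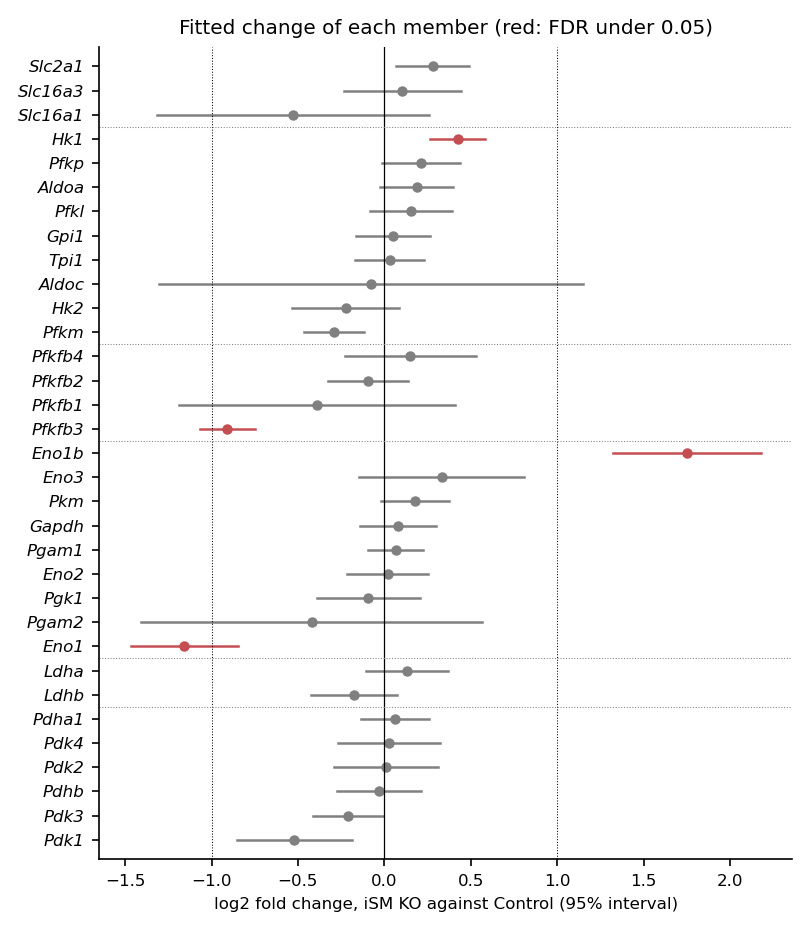
Log2 fold change of iSM KO against Control for each of the 33 genes (points) with its 95% interval (lines), by step of the pathway; dotted vertical lines mark a fold change of 2. Eno1b and Eno1 lie beyond these lines in opposite directions, Pfkfb3 at -0.91 and Hk1 at 0.42 are the other red points, and most points lie close to 0.

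**Figure D2:**
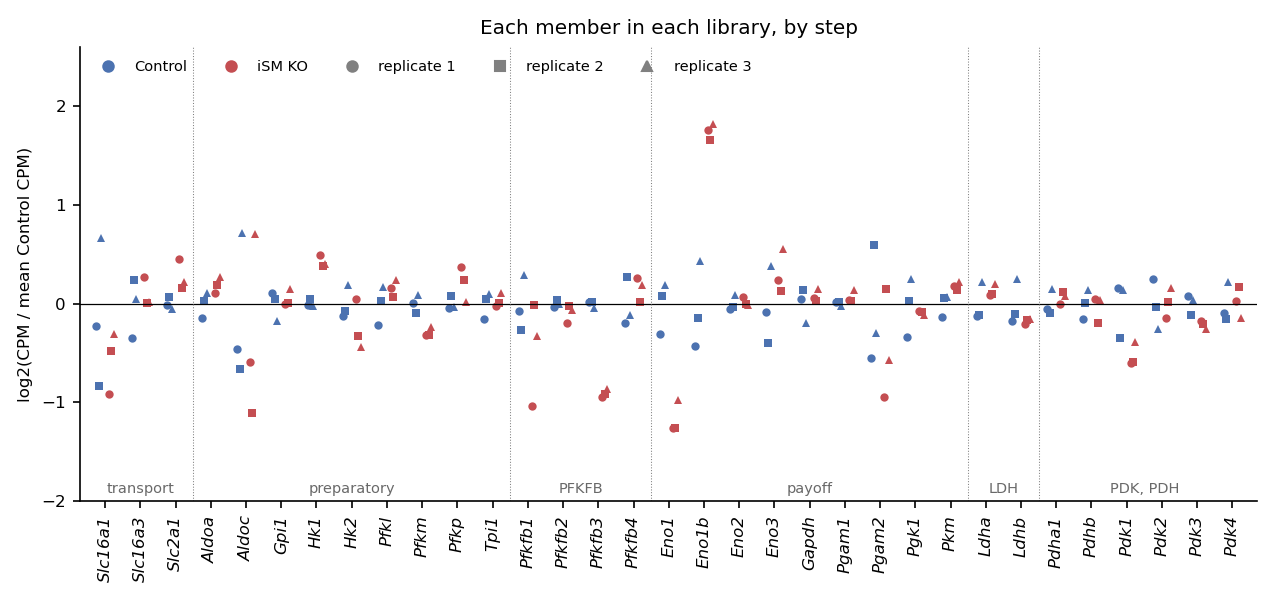
Each gene in each library as log2 of its CPM over the mean CPM of the 3 Control libraries, with the group by colour and the replicate by shape. The Control points of Eno1, Eno1b and Pfkfb3 are clear of the iSM KO points, and Aldoc, Slc16a1 and Pgam2 scatter widely within each group.

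The first steps bring glucose into the cell and phosphorylate it. Hk1, the hexokinase of most tissues (chromosome 10, 62268855 to 62379908), was at 64.9, 67.9 and 64.5 CPM in the Control libraries and at 92.2, 85.7 and 86.8 CPM in the iSM KO libraries. It was thus higher in every iSM KO library (log2 fold change 0.42, SE 0.07, FDR 0.00777 by edgeR). Without iSM KO replicate 1, the highest library, the FDR was 0.051. Hk2, the insulin- and hypoxia-responsive hexokinase, was at 38.4, 39.7 and 47.6 CPM in Control and at 43.2, 33.3 and 30.9 CPM in iSM KO. Its groups overlapped (log2 fold change -0.22, SE 0.14, FDR 0.373). Within each library, the log2 ratio of Hk2 to Hk1 was -0.76, -0.77 and -0.44 in Control and -1.09, -1.36 and -1.49 in iSM KO. The ratio was lower in every iSM KO library, by a mean of 0.66 on the log2 scale.

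Slc2a1, the basal glucose transporter GLUT1, was at 39.5, 41.9 and 38.4 CPM in Control and at 54.6, 44.5 and 46.6 CPM in iSM KO. These groups did not overlap, and the difference did not pass the test (log2 fold change 0.28, SE 0.09, FDR 0.115). Slc16a1 and Slc16a3 carry lactate and pyruvate with protons across the plasma membrane. Slc16a1 ranged from 2.78 to 7.84 CPM in Control and from 2.63 to 4.0 CPM in iSM KO, and Slc16a3 from 14.7 to 22.1 CPM and from 18.9 to 22.5 CPM. None of the 3 transport genes passed with edgeR, DESeq2 or limma-voom, and 1 (Slc2a1) had an unadjusted p under 0.05 with edgeR. Over all tested genes, 3669 of 16565 had such a p in either direction.

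Phosphofructokinase commits the sugar to glycolysis, and its 3 subunit genes are Pfkm, named for muscle, Pfkl, named for liver, and Pfkp, named for platelets. Pfkm was at 54.1, 50.5 and 57.2 CPM in Control and at 43.3, 43.1 and 45.7 CPM in iSM KO. Every iSM KO library was lower, with an FDR of 0.0531 by edgeR (log2 fold change -0.29, SE 0.08) and an adjusted p of 0.0432 by DESeq2. Pfkp was at 118, 128 and 119 CPM in Control and at 157, 144 and 123 CPM in iSM KO, with overlap (log2 fold change 0.21, SE 0.10, FDR 0.25). Pfkl ranged from 36.0 to 47.0 CPM in Control and from 43.7 to 49.3 CPM in iSM KO. The log2 ratio of Pfkp to Pfkm was 1.13, 1.35 and 1.06 in Control against 1.86, 1.74 and 1.43 in iSM KO, and that of Pfkl to Pfkm was -0.59, -0.25 and -0.28 against 0.11, 0.02 and 0.11. Both ratios were higher in every iSM KO library.

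The activity of phosphofructokinase is set by fructose 2,6-bisphosphate, which the 4 Pfkfb enzymes make and break down. Pfkfb3, the form with the highest kinase relative to phosphatase activity (chromosome 2, 11471433 to 11554077), was at 63.6, 63.5 and 60.9 CPM in the Control libraries. It was at 32.6, 33.2 and 34.4 CPM in the iSM KO libraries. The spread within each group was small against the gap between them (62.7 ± 1.54 against 33.4 ± 0.948 CPM, SD, n = 3 each). The log2 fold change was -0.91 (SE 0.07, 95% interval -1.06 to -0.75, FDR 0.000156 by edgeR), with the smallest SE of the 33 genes. Its FDR stayed between 0.000771 and 0.00263 when any 1 library was left out. All its deposited counts were whole numbers. The other 3 members did not pass. Pfkfb2, the heart form, was at 10.7 ± 0.293 CPM in Control and 10.1 ± 0.606 CPM in iSM KO (SD, n = 3), Pfkfb4 was at 5.04 ± 0.90 and 5.60 ± 0.481 CPM, and Pfkfb1, the liver form, stayed under 1 CPM. The log2 ratio of Pfkfb3 to Pfkfb2 was 2.6, 2.52 and 2.50 in Control and 1.80, 1.66 and 1.74 in iSM KO.

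Of the lists for other cell types and tissue handling, 1 held genes that are induced within minutes by stress and handling. Of its 8 genes, 3 fell (Fos, Dusp1 and Ier2), and the list summed to 662 to 1502 CPM in Control and to 535 to 626 CPM in iSM KO. Its level thus moved in the same direction as Pfkfb3, and its part in that result was not tested. Fos was at 50.3, 213 and 39.3 CPM in Control and at 13.9, 14.4 and 13.9 CPM in iSM KO.

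The remaining preparatory enzymes did not pass. Gpi1, the glucose-6-phosphate isomerase, was at 197 ± 19.8 CPM in Control and 204 ± 12.7 CPM in iSM KO (SD, n = 3). Tpi1, the triose-phosphate isomerase, was at 104 ± 9.54 and 106 ± 4.80 CPM. Aldoa, the muscle aldolase, was at 289, 326 and 346 CPM in Control and at 344, 364 and 385 CPM in iSM KO, where only the lowest iSM KO library reached into the Control range (log2 fold change 0.19, FDR 0.282). Aldoc, the brain aldolase, stayed between 0.344 and 1.22 CPM. Per kilobase of exon, Aldoa was the most abundant of all 33 genes, with levels of 110.0 ± 9.86 in Control and 125 ± 6.94 CPM per kilobase in iSM KO, and Pkm, the last enzyme of glycolysis, followed with 83.0 ± 6.31 and 93.8 ± 2.6 CPM per kilobase (SD, n = 3).

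Enolase converts 2-phosphoglycerate to phosphoenolpyruvate, and its 2 most strongly changed genes moved in opposite directions. Eno1, the widely used alpha enolase (chromosome 4, 150236721 to 150248879), was at 114, 149 and 162 CPM in the Control libraries and at 59.4, 59.2 and 72.3 CPM in the iSM KO libraries (log2 fold change -1.16, SE 0.14, FDR 0.00149 by edgeR). Eno1b, on chromosome 18 from 48045335 to 48048412, is a retrotransposed copy of Eno1. It was at 29.9, 36.4 and 54.4 CPM in Control and at 136, 127 and 142 CPM in iSM KO (log2 fold change 1.75, SE 0.19, FDR 0.00096). The groups were far apart for both genes, and Eno1b changed from the lower of the pair in every Control library to the higher in every iSM KO library.

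The sum of both genes did not follow either of them. It was 144, 186 and 217 CPM in Control and 195, 186 and 214 CPM in iSM KO, so that the iSM KO libraries lay inside the Control range. The sum had a log2 fold change of 0.12 (SE 0.14, FDR 0.64), and its 95% interval, from -0.19 to 0.44, corresponds to a fold change between 0.878 and 1.35. Of the counts of the pair, 20.7%, 19.6% and 25.1% were assigned to Eno1b in the Control libraries and 69.6%, 68.2% and 66.2% in the iSM KO libraries. The shift between the genes was therefore alike in all 3 libraries of a group, while the total was not distinguishable between groups.

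Both enolase values depend on how reads were assigned, because the sequences are nearly the same. Aligned over 1736 bases, the Eno1 transcript (2027 bases) and the Eno1b transcript (1747 bases) differed by 9 substitutions and no gap, an identity of 99.48%. The longest run without a substitution was 835 bases, and 57.4% of stretches of 150 bases, the length of a read, held none, so that a single read from there fits both genes. The deposited counts of Eno1 were not whole numbers in all 6 libraries, and those of Eno1b in 5, which happens where reads are divided between genes. How the authors divided them is not given in the sources used here. Eno1 also lies 4.07 Mb from Prdm16 on chromosome 4. Sequence differences linked to the floxed allele, the division of reads between the copies and a change of either transcript cannot be told apart in these counts.

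**Figure D3:**
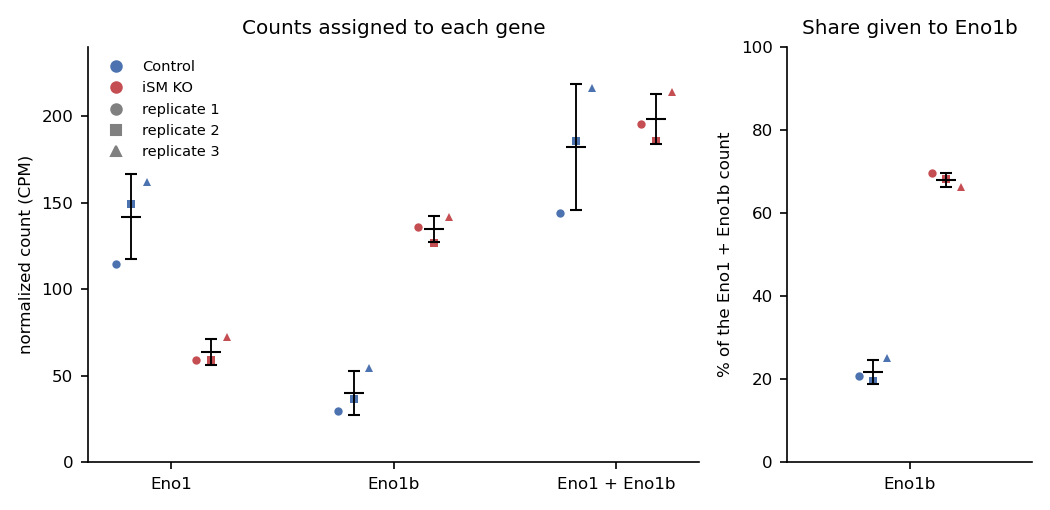
Left, CPM of Eno1, Eno1b and their sum in each library; right, the percent of the sum assigned to Eno1b; points are libraries, horizontal bars the mean and whiskers 1 SD (n = 3). Eno1 is lower and Eno1b higher in iSM KO without overlap, while the sums of 195, 186 and 214 CPM in iSM KO lie within the 144 to 217 CPM of Control.

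The tissue-restricted enolases did not pass. Eno2, the neuronal form, was at 9.75 ± 0.495 CPM in Control and 9.86 ± 0.321 CPM in iSM KO (SD, n = 3). Eno3, the muscle form, was at 4.96, 3.98 and 6.83 CPM in Control and at 6.21, 5.76 and 7.72 CPM in iSM KO (log2 fold change 0.33, SE 0.21, FDR 0.398). Their log2 ratios to the sum of Eno1 and Eno1b overlapped between groups.

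The other payoff enzymes were at similar levels in both groups. Gapdh, which makes the NADH of glycolysis and served as the reference gene of the study's quantitative PCR, was at 153, 163 and 129 CPM in Control and at 154, 151 and 163 CPM in iSM KO. Its log2 fold change was 0.08, with a 95% interval from -0.14 to 0.30. Pkm, the pyruvate kinase gene, was at 379, 430 and 436 CPM in Control and at 470.0, 455 and 481 CPM in iSM KO. Its groups did not overlap, but the difference did not pass (log2 fold change 0.18, SE 0.09, FDR 0.278), and counts per gene do not separate its M1 and M2 splice forms. Pgam1, the phosphoglycerate mutase, differed by a log2 fold change of 0.07 (FDR 0.626) although its groups did not overlap. Pgk1, the phosphoglycerate kinase, was at 44.4 ± 8.87 and 41.6 ± 0.639 CPM (SD, n = 3), and the muscle mutase Pgam2 stayed under 1 CPM.

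Several of these genes also share reads with processed pseudogenes. Together, 92 copies of Gapdh, of which 79 had counts, took 37.9% to 41.8% of the counts of the Gapdh family in every library, with no gap between groups. The most abundant, Gm7336, was at 59.6 ± 6.69 CPM in Control and 69.4 ± 2.37 CPM in iSM KO (SD, n = 3). Copies took 19.9% to 26.5% of the Pgk1 family, chiefly Pgk1-rs7 and Gm5537, and 7.63% to 13.7% of the Pgam1 family, chiefly Pgam1-ps2. In none of the families of Gapdh, Pgk1 and Pgam1 did the pooled share of the copies separate the groups, in contrast to the enolase pair. Single copies could still differ. Gm5537 was at 2.84, 7.05 and 8.26 CPM in Control and at 11.3, 9.28 and 8.38 CPM in iSM KO. Its log2 fold change was 0.68 (FDR 0.253), and that of Pgk1-rs7, with overlapping groups, was -0.56 (FDR 0.281). Deposited counts were whole in every library for 18 of the 33 genes and not whole in at least 1 library for the other 15. Of the 4 genes past the FDR, Hk1 and Pfkfb3 were among the 18. A few other genes share only a short stretch with a member at counts of at least 10% of its own, namely Peli2 with Gapdh, Wdr33 with Gpi1, and Lpl, Cflar, Pik3c2b and Kcna2 with Pdk4, and the neighbours Yod1 and Pitrm1 overlap Pfkfb2 and Pfkp.

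Lactate dehydrogenase is a tetramer of the products of Ldha, which favours lactate, and Ldhb, which favours pyruvate. Ldha was at 101.05, 101.77 and 129 CPM in Control and at 117, 118 and 127 CPM in iSM KO (log2 fold change 0.13, FDR 0.507). Ldhb was at 51.7, 54.0 and 69.3 CPM in Control and at 50.4, 51.9 and 52.3 CPM in iSM KO (log2 fold change -0.18, FDR 0.387). Neither gene passed with edgeR, DESeq2 or limma-voom, and neither had an unadjusted p under 0.05 with edgeR. Within libraries the 2 genes were tightly related, and the log2 ratio of Ldhb to Ldha was -0.97, -0.91 and -0.89 in Control and -1.22, -1.19 and -1.28 in iSM KO. The ratio was lower in every iSM KO library, by 0.30 on the log2 scale, a difference larger than the SD of 0.0383 and 0.0468 within the groups.

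The pyruvate dehydrogenase switch comprised the 4 kinases and 2 subunits of the E1 enzyme. Pdk1, the hypoxia-responsive kinase, was at 18.9, 13.2 and 18.5 CPM in Control and at 11.1, 11.2 and 12.8 CPM in iSM KO. Every iSM KO library was lower, and the call depended on the method, with an FDR of 0.0678 by edgeR (log2 fold change -0.52, SE 0.15), 0.0174 by edgeR without the filter on low counts and an adjusted p of 0.0218 by DESeq2. Pdk3, a kinase little inhibited by pyruvate, was at 22.2 ± 1.51 CPM in Control and 19.2 ± 0.57 CPM in iSM KO (SD, n = 3), without overlap (log2 fold change -0.21, FDR 0.205). Pdk2, the most widely expressed kinase, and Pdk4, the kinase induced by fasting, had log2 fold changes of 0.01 and 0.02 and overlapping groups. Pdha1 and Pdhb, the 2 subunits of the E1 enzyme, were at 99.9 ± 9.28 and 27.6 ± 2.83 CPM in Control and at 104 ± 4.54 and 26.9 ± 2.45 CPM in iSM KO. None of the 6 genes passed with edgeR or limma-voom, and 1 passed with DESeq2. With edgeR, 2 had an unadjusted p under 0.05, beside 3669 of all 16565 tested genes. Without Control replicate 2, both Pdk1 (FDR 0.0115) and Pfkm (FDR 0.0335) passed with edgeR, which brought the genes that fell from 2 to 4.

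Ratios of paired isozymes or transporters within a library do not depend on library scaling, and 10 were compared. The groups did not overlap for Hk2 to Hk1, Pfkp to Pfkm, Pfkl to Pfkm, Ldhb to Ldha and Pfkfb3 to Pfkfb2, and overlapped for the other 5. No such share was computed for other gene pairs. For single genes, groups were apart for 15.0% (higher) and 13.0% (lower) of all tested genes. The ratios are not separate results, since both ratios to Pfkm share that gene, and Hk1 and Pfkfb3 passed alone. Each of the 5 that did not overlap had p = 0.1 in a two-sided exact permutation test of 3 against 3 libraries, the smallest p this design allows, and an adjusted p of 0.2 over the 10 ratios. The ratios of Slc16a3 to Slc16a1 and of Aldoc to Aldoa differed between groups by less than the larger SD within a group.

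**Figure D4:**
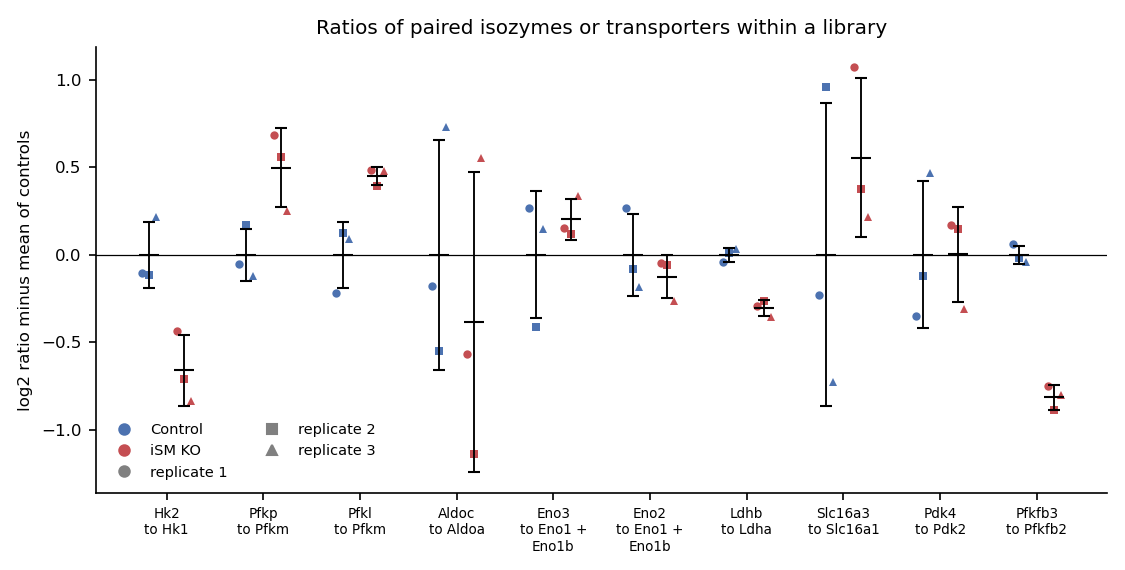
Log2 ratio of paired genes in each library minus the mean of the 3 Control libraries; points are libraries, horizontal bars the mean and whiskers 1 SD (n = 3). The ratios of Hk2 to Hk1, Ldhb to Ldha and Pfkfb3 to Pfkfb2 are lower and those of Pfkp and Pfkl to Pfkm higher in every iSM KO library.

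Further genes of glucose and pyruvate metabolism were taken from 8 lists with 103 genes, of which 92 were tested. Of these, 5 rose (5.43%) and 10 fell (10.9%), beside the 4.26% and 3.30% of all tested genes given above, with a median log2 fold change of -0.0011. Both counts changed when single libraries were left out. Such fits hold fewer libraries, and the counts over all tested genes in them are not given here. Without iSM KO replicate 2, 3 rose and 3 fell. Without iSM KO replicate 1, 3 rose and 6 fell, and without Control replicate 3, 6 fell.

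In glucose and lactate entry, 1 of 9 tested genes rose and 2 fell. Slc2a3, the high-affinity glucose transporter GLUT3, was at 2.30, 2.55 and 2.52 CPM in Control and at 5.82, 5.42 and 5.20 CPM in iSM KO (log2 fold change 1.16, FDR 0.00269 by edgeR). Slc2a4, the insulin-regulated transporter GLUT4, was at 25.0, 23.6 and 26.5 CPM in Control and at 18, 17.4 and 16.3 CPM in iSM KO (log2 fold change -0.54, FDR 0.00794). Emb, a chaperone of lactate transporters, was at 49.6, 65.4 and 61.9 CPM and at 39.2, 32.8 and 33.4 CPM (log2 fold change -0.75, FDR 0.00606). The groups did not overlap for any of these genes, and Slc2a3 had the lowest level of the 3.

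Other isozymes and side reactions had 2 of 9 tested genes that fell. Galm, which interconverts the anomers of aldoses, was at 4.63 to 5.33 CPM in Control and 2.72 to 3.04 CPM in iSM KO, and Tigar, a phosphatase that lowers fructose 2,6-bisphosphate, was at 11.3 to 12.0 CPM and 7.53 to 8.12 CPM (log2 fold changes -0.77 and -0.57). Of the glycogen genes, Phkg1, a catalytic subunit of phosphorylase kinase, fell from 20.2, 18.4 and 18.1 CPM to 13.8, 13.7 and 14.0 CPM (log2 fold change -0.45, FDR 0.0176). Of the 10 genes of the cytosolic NADH shuttles, Gpd2, the mitochondrial glycerol-3-phosphate dehydrogenase, fell by 0.41 on the log2 scale (FDR 0.0431). None of the 8 pentose phosphate genes passed with edgeR, DESeq2 or limma-voom. With edgeR, 1 had an unadjusted p under 0.05, beside 3669 of all 16565 tested genes. Those with the largest differences in that list were Pgd (log2 fold change 0.26, FDR 0.0953) and Rpe (-0.24, FDR 0.335).

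Among 20 regulators, Pparg, the nuclear receptor of fat cell differentiation, rose from 3.22, 4.58 and 3.77 CPM to 7.78, 9.71 and 8.95 CPM (log2 fold change 1.19, FDR 0.00354). Ppargc1a, a coactivator of mitochondrial biogenesis, rose from 4.93, 3.59 and 5.03 CPM to 7.97, 7.68 and 7.53 CPM (log2 fold change 0.78, FDR 0.0192). Mlxipl, the carbohydrate response factor ChREBP, fell from 4.33, 4.84 and 6.46 CPM to 1.15, 1.89 and 2.63 CPM (log2 fold change -1.46, FDR 0.0191). Hif1a, an oxygen-regulated subunit of hypoxia-inducible factor, did not pass (log2 fold change 0.08, FDR 0.612). Epas1, another such subunit, was at 477, 527 and 372 CPM in Control and at 565, 633 and 671 CPM in iSM KO. Its groups did not overlap, and the difference did not pass (log2 fold change 0.44, FDR 0.088). Both are named outside the rule because targets of the factor are counted next.

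Of 14 further targets of hypoxia-inducible factor, 1 rose and 2 fell. P4ha1, a subunit of collagen prolyl hydroxylase, was at 29.2, 38.1 and 35.3 CPM in Control and at 55.7, 49.9 and 41.3 CPM in iSM KO (log2 fold change 0.52, FDR 0.0467). Ndrg1, a stress-induced growth regulator, was at 113, 116 and 98.5 CPM in Control and at 47.8, 53.0 and 58.9 CPM in iSM KO (log2 fold change -1.04, FDR 0.000559). Higd1a, a mitochondrial protein induced by hypoxia, fell by 0.70 on the log2 scale (FDR 0.0117). The list summed to 375 to 391 CPM in Control and to 313 to 325 CPM in iSM KO, and its median log2 fold change was -0.11. Much of the difference between these sums came from Ndrg1, with means of 109 CPM in Control and 53.2 CPM in iSM KO. Of the 14 genes, 6 had positive log2 fold changes. Among a selection of pathway genes that are also known targets of this factor, Pfkfb3 and Eno1 fell and Hk1 rose. No full list of such targets within the pathway was drawn up. Eno1 counts depend on the division of reads with Eno1b, and the sum of both had a log2 fold change of 0.12 (FDR 0.64). By edgeR, Slc2a1, Aldoa, Pkm, Pfkfb4, Ldha and Slc16a3 did not pass, with log2 fold changes of 0.28, 0.19, 0.18, 0.15, 0.13 and 0.10. Those of Pdk1, Hk2 and Pgk1 were -0.52, -0.22 and -0.09, also without passing, so that directions were mixed within this selection.

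In the list for pyruvate entry into mitochondria, 1 of 11 tested genes fell, none rose and the other 10 did not pass. The gene that fell was Pck1, the cytosolic phosphoenolpyruvate carboxykinase of liver, kidney and fat, which does not itself act in that entry. It was at 2.24, 28.6 and 19.3 CPM in Control and at 1.89, 1.52 and 1.2 CPM in iSM KO (log2 fold change -3.43, SE 0.74, FDR 0.0256), and Control replicate 1 was close to the iSM KO libraries. Of 8 white adipocyte markers, 7 were tested and 6 fell (Cd36, Lpl, Adipoq, Cidec, Plin1 and Fabp4), and the list summed to 51.1 to 156 CPM in Control and to 17.9 to 27.7 CPM in iSM KO, with no marker at 0. Adipoq, the defining adipokine, was at 1.40, 11.1 and 4.61 CPM in Control and at 0.319, 0.172 and 0.630 CPM in iSM KO, and like Pck1 it was lowest in replicate 1 of the Control libraries. These calls depended on the method. With DESeq2, 7 white adipocyte markers and 1 gene of the pyruvate entry list passed, and with limma-voom 2 and 0 passed. The part of fat cells in the values of Pck1, Slc2a4, Mlxipl and Gpd2 was not tested. Brown adipocyte markers summed to 35.8 to 79.5 CPM in Control and 28.6 to 33.4 CPM in iSM KO, with Cidea as the 1 of 5 tested that fell. This list includes Pdk4, a gene of the pathway, and Ppara, one of the 20 regulators, so its sum is not separate from them. Pdk4 had means of 14.5 CPM in Control and 14.7 CPM in iSM KO, and Dio2 of 11.3 and 9.74 CPM. Ucp1 was by far highest in Control replicate 3, with at most 4.22 CPM in any other library.

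Smooth muscle markers, the defining genes of the aortic media, summed to 22497 to 27516 CPM in Control and 24268 to 26745 CPM in iSM KO. Of 8, Myocd and Des rose and none fell. Other markers stood as follows. Endothelial, fibroblast and macrophage lists had median log2 fold changes of -0.60, -0.93 and -0.54, and all 8 genes of each list had negative log2 fold changes. With edgeR 1 fibroblast gene (Clec3b) passed and 0 of the other lists, and with DESeq2 2 fibroblast genes, 1 macrophage gene and 0 endothelial genes passed. At an unadjusted p under 0.05 with edgeR, all 8 fibroblast genes, 2 macrophage genes and 1 endothelial gene were lower. Over all tested genes, 3669 of 16565 had such a p in either direction. Of 4 tested cardiomyocyte markers Ryr2 rose and the other 3 were lower without passing (median log2 fold change -0.56), and of 6 tested neuronal markers Tubb3 rose (median 0.18). Red blood cell genes, whose cells depend on glycolysis, summed to 45.3 to 105 CPM in Control and 6.76 to 144 CPM in iSM KO with overlap, and skeletal muscle genes summed to 3.14 to 4.29 CPM in Control and 2.38 to 2.94 CPM in iSM KO, with 4 of 8 under 0.1 CPM throughout. The part of these cells in the values of the pathway was not tested.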

How the data were processed

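Ribosomal RNA was depleted, and paired-end reads of 150 bases were mapped and quantified by the authors with DRAGEN against the Ensembl release 101 mouse reference (mm10). The authors deposited estimated counts per gene for each library, neither normalized nor rounded, and 10.9% to 12.2% of the values were not whole. How reads that match several genes were divided is not given in the sources used here. The columns were matched to samples by name.

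Counts were rounded. A gene was tested if its counts exceeded 10 throughout the Control or the iSM KO libraries. The test was edgeR's quasi-likelihood F-test (version 4.0.16, R 4.3.3), after TMM scaling, of 3 against 3 libraries without covariates. FDR is the Benjamini-Hochberg adjusted p over all 16565 tested genes. The study used DESeq2, which is an alternative here. CPM are counts scaled to a common library size with the TMM factors. Log2 ratios used a pseudocount of 0.5. Exon lengths and positions come from GENCODE release M21, and near-identical copies from blastn 2.17.0 (at least 95% identity over at least 100 bases). Scripts were tested on simulated data. Pairs of libraries differed by more than sampling noise (chi-square per degree of freedom from 12.2 to 81.5), so none was counted as a duplicate.

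The genes, lists and tests were chosen with earlier results of these data known. Named are all 33 genes, the sum of Eno1 and Eno1b, every gene of the further lists with an FDR under 0.05, the 2 largest differences of a list with none, and copies with at least 10% of a member's count. Markers of other cell types, Hif1a and Epas1 were named beside these. Alternatives were DESeq2 1.42.0, limma-voom (limma 3.58.1), other scalings and filters, a replicate block, leaving out each library, glmTreat and sums with copies. Exon-level reads and splice forms were not analysed here, and 1 further result is not reported here.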

Additional observations from a re-analysis of the deposited data

How the results depend on the processing

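Eno1, Eno1b and Pfkfb3 kept their direction and an FDR under 0.05 in every alternative that fitted them separately, except the glmTreat test described here. With DESeq2, 4 genes of the pathway fell. The share of all tested genes that fell with DESeq2 is not given here, so this count has no background beside it. With counts summed over near-identical copies, 1 gene rose (Hk1), 1 fell (Pfkfb3) and 0 passed the fold change of 2, since Eno1 and Eno1b then form 1 row, and sums over retrocopies alone, an alternative chosen after seeing the data, gave 1, 1 and 0. In both of these edgeR fits the count at an unadjusted p under 0.05 with a fold change over 2 was also 0. A glmTreat test against a fold change of 2 called 0 genes, with 2 at an unadjusted p under 0.05. Summed with genes that share a short repeat, Pdk4 had a log2 fold change of -0.25.

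No pairing by replicate number was apparent, as same-numbered libraries deviated from their group means with correlations of -0.18, -0.08 and -0.18 across genes. With 3 libraries per group, such weak correlations cannot exclude a pairing. With the replicate block, 2 genes of the pathway rose and 2 fell, and the further lists had 3 that rose and 6 that fell. No call of the pathway changed with the block.

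Leaving out 1 library at a time gave 1 to 2 genes that rose, 2 to 4 that fell, and 3 to 7 that rose and 3 to 10 that fell in the further lists. The log2 fold change of the sum of Eno1 and Eno1b ranged from -0.010 to 0.26, and the log2 ratio differences from -0.0035 to 0.34 for Eno3 and -0.22 to 0.0086 for Eno2 to that sum, and from -0.17 to 0.24 for Pdk4 to Pdk2. Values crossed 0 for genes that did not pass, with ranges of -0.030 to 0.11 for Gpi1, -0.77 to 0.43 for Aldoc, -0.036 to 0.079 for Tpi1, -0.016 to 0.15 for Gapdh, -0.23 to 0.047 for Pgk1, -0.77 to 0.039 for Pgam2, -0.012 to 0.057 for Eno2, -0.039 to 0.25 for Slc16a3, -0.10 to 0.16 for Pdk2, -0.059 to 0.14 for Pdk4 and -0.097 to 0.039 for Pdhb. The cause of these shifts was not tested. Aldoc, Pgam2 and Pfkfb1 had under 50 counts in at least 1 library, which limits their precision. Each edgeR p-value sets a difference against the spread between 3 mice per group, as moderated across genes, and against no other source of variation.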
